A study of Bos taurus with 12 samples.

Results

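The 7 genes described here encode parts of the sodium pump and of the machinery that sets cell pH in the right ventricle of Angus steers. They were chosen by symbol from the 24616 genes of the deposited table, and each of the 7 symbols was found. ATP1B1 is the pump's beta-1 subunit and FXYD1 its phospholemman regulator. SLC4A3 is a chloride-bicarbonate exchanger, and CA13, CA2, CA4 and CA14 are carbonic anhydrases. The symbols were picked with the group values of these genes already known, so their differences between groups are given as descriptions, without a test.

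The series holds 12 libraries of right ventricle RNA, each from a different animal, all wild-type Angus steers (castrated males) kept at 2170 m (7120 ft) until slaughter, when they were aged 13 to 15 months. By catheter measurements of pulmonary arterial pressure (PAP) and by clinical signs, 6 animals were classed as low PAP, 3 as high PAP without signs of failure (PH-healthy) and 3 as high PAP with right heart failure (PH-failure). Every group shared the chronic low oxygen of that elevation, and no animal from low elevation entered these comparisons. The values are RPKM, read numbers scaled by the exon length of a gene and by library size, so levels of different genes can be set side by side per length. Group values are mean ± SD with n = 6 for low PAP, n = 3 for PH-healthy and n = 3 for PH-failure. Differences are in log2(RPKM + 1), ± SE, from 1 limma fit to 11374 genes, a scale on which the change of weakly expressed genes is understated.

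The sodium pump exports sodium and imports potassium at the expense of ATP. Its alpha subunit carries out transport, its beta subunit brings alpha to the membrane and stabilizes it, and FXYD1, when not phosphorylated, holds the pump of heart muscle back. The sodium gradient that the pump builds drives calcium export through the sodium-calcium exchanger and acid export through sodium-proton exchange and bicarbonate transport. Carbonic anhydrases interconvert carbon dioxide and bicarbonate and so supply these transporters with protons and bicarbonate, CA2 and CA13 in the cytosol, CA4 held to the outer cell surface by a lipid anchor and CA14 spanning the membrane with its active site outside.

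Library depth, worked out from the RPKM worth of a single read, was 14739237 to 31090198 mapped reads, and the median over tested genes and libraries was 370 reads. Genes of the mitochondrial genome took 22.5 to 29.9% of exon reads in low PAP, 18.3 to 20.7% in PH-healthy and 17.8 to 20.3% in PH-failure. Relative to low PAP the whole table was shifted, with median differences of 0.21 in PH-failure and 0.18 in PH-healthy, which quantile normalization brought to -0.03 and -0.04. Differences below include that general shift, which the fit did not remove. The libraries carry series numbers 55 and 56 (lanes 4 and 5 in the headers), and each group had libraries of both, with a single PH-healthy library in series 56 and a single PH-failure library in series 55. The 8 genes of the ventricular muscle list summed to 57314 to 75530 RPKM in low PAP, 66933 to 73099 in PH-healthy and 43418 to 72328 in PH-failure. The 43418 was PH-failure replicate 3, where ACTC1 was at 831 RPKM. In PH-failure ACTC1 and TNNI3 were called lower (limma adjusted p = 0.0345 and 0.0329), beside 5.79% of all genes. In PH-healthy MYH7 was called higher (limma adjusted p = 0.0460) and TNNI3 lower (0.0443), beside 26.6% and 8.15% of all genes.

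In low PAP the 7 genes ranged from 529 ± 61.1 RPKM (FXYD1) through 155 ± 50.1 (ATP1B1), 69.2 ± 11.1 (CA14), 14.5 ± 1.73 (CA2), 9.62 ± 0.899 (SLC4A3) and 3.80 ± 1.21 (CA13) to 0.666 ± 0.403 (CA4). FXYD1 stood at rank 186 and CA4 at rank 11218 of the 16692 genes above 0 in that group. Neighbours in this order had ranges over the 6 low-PAP libraries that did not overlap. In the PH groups CA13 fell below CA4 in mean level, and the ranges of those 2 genes overlapped in PH-failure but not in PH-healthy. The other 5 genes kept their order in both PH groups.

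**Figure D1:**
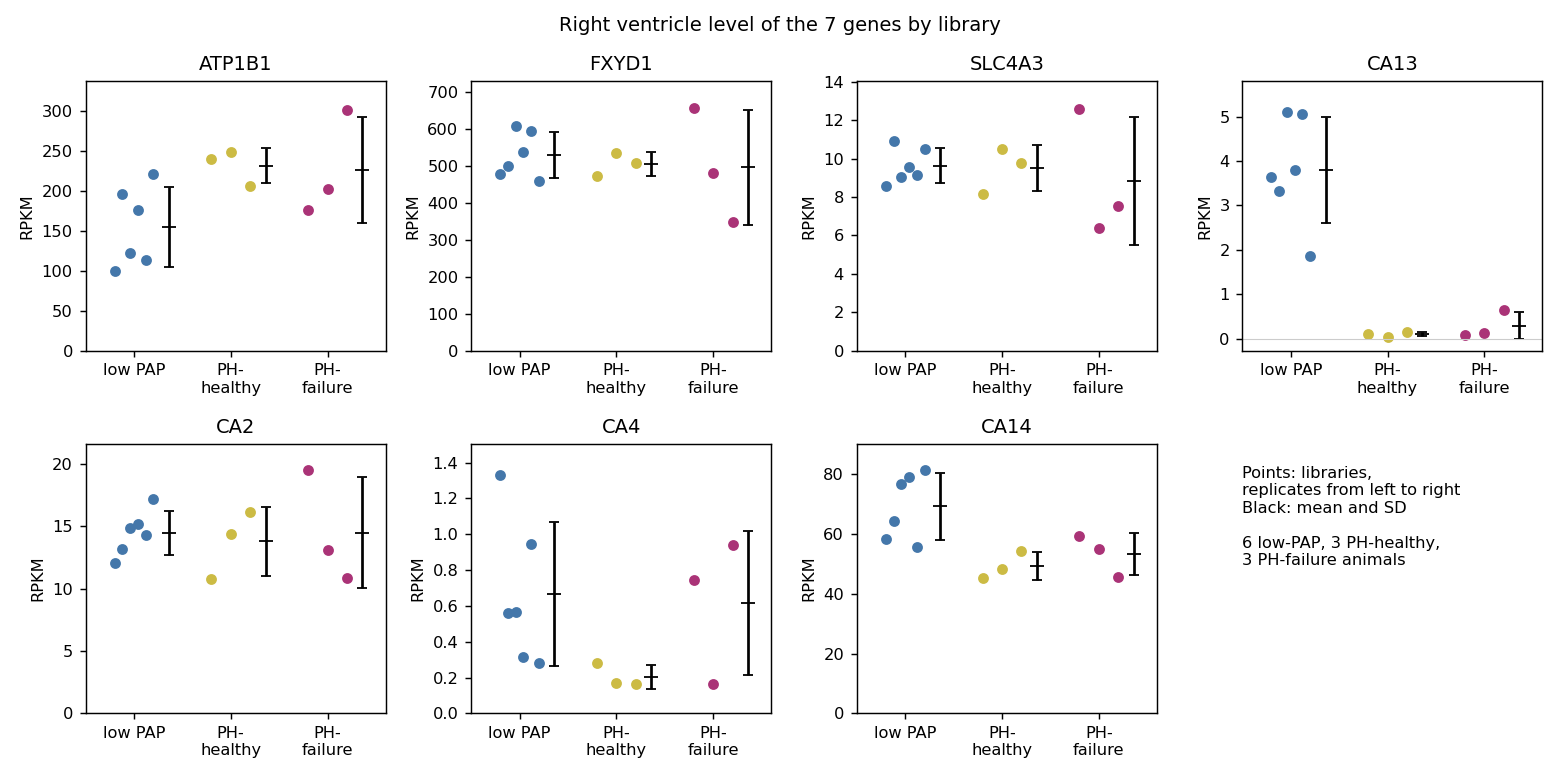
RPKM (linear axis) of the 7 genes in each of the 12 libraries, by group, with points for libraries and a black bar for mean and SD. CA13 was at 1.87 to 5.10 RPKM in low PAP and at 0.640 or less in every PH library, while FXYD1, SLC4A3 and CA2 had overlapping values in all 3 groups.

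Of the 7 genes, 1 (CA13, lower) had no overlap between PH-failure and low PAP, beside a background of 22.3% of all tested genes in either direction and 3.74% lower. For PH-healthy and low PAP 2 had no overlap (CA13 and CA14, both lower), beside 34.3% of all tested genes in either direction and 9.3% lower. Every one of the 7 overlapped between PH-failure and PH-healthy, where 5.74% of all tested genes did not (3.61% higher and 2.13% lower). Since the genes were chosen with these contrasts known, nothing follows from the counts.

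ATP1B1 (ENSBTAG00000002688, chromosome 16, 37568415 to 37593957) measured 99.8, 197, 123, 176, 114 and 222 RPKM in low-PAP replicates 1 to 6. It measured 240, 249 and 207 in PH-healthy and 176, 203 and 302 in PH-failure replicates 1 to 3. Low-PAP replicates 1, 3 and 5, at 99.8 to 123, lay below all PH libraries, while replicate 6 lay within the range of both PH groups, so both overlapped low PAP. The means were 232 ± 21.9 in PH-healthy and 227 ± 66.2 in PH-failure, differences from low PAP of 0.64 ± 0.25 and 0.57 ± 0.25. Within series 56 the difference of PH-failure from low PAP was 0.32 and within series 55, where 1 PH-failure library stands, it was 1.05. For PH-healthy these were 0.66 and 0.64. Over all alternatives and series splits the difference ranged from 0.41 to 0.78 in PH-healthy and from 0.31 to 1.05 in PH-failure. PH-failure differed from PH-healthy by -0.06 ± 0.29, with the highest and the lowest PH library both in PH-failure. In such bulk RNA, a change in the number of cells of a type and a change in RNA per cell cannot be told apart.

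FXYD1 (ENSBTAG00000017816, chromosome 18, 46053082 to 46057378) was the most abundant of the 7. Its levels were 477, 499, 607, 536, 594 and 460 RPKM in low PAP, 471, 534 and 508 in PH-healthy, and 657, 481 and 348 in PH-failure. PH-failure held both the highest and the lowest of the 12 libraries, and all groups overlapped. The means of 504 ± 31.6 and 495 ± 155 RPKM in PH-healthy and PH-failure gave differences from low PAP of -0.06 ± 0.17 and -0.13 ± 0.17. The sign of both depended on the scaling, with 0.33 and 0.09 after quantile normalization and -0.28 and -0.39 with median-ratio scaling. PH-failure against low PAP also changed sign between series 56 (0.16) and series 55 (-0.66), and without PH-failure replicate 3 it was 0.10. No direction is therefore given for FXYD1.

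ATP1B1 was the main beta subunit RNA of the pump in every library, at 90.5% or more of the RPKM of ATP1B1, ATP1B2 and ATP1B3. Its share averaged 93.6 ± 1.77% in low PAP, 94.3 ± 0.353% in PH-healthy and 93.8 ± 0.914% in PH-failure. The shares overlapped between all groups.

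Other beta and FXYD genes of the pump were taken from lists of sodium and pH transport genes made by function. ATP1B4, a beta-family protein of striated muscle that in mammals acts at the inner nuclear membrane rather than in the pump, was at 22.6, 24.1, 21.6, 26.0, 22.4 and 28.0 RPKM in low PAP. In PH-healthy it was at 46.5, 62.5 and 52.5, and in PH-failure at 39.1, 53.1 and 80.9. Every PH library lay above every low-PAP library. ATP1B4 rose by 1.12 ± 0.18 in PH-healthy (limma adjusted p = 0.00163) and by 1.17 ± 0.18 in PH-failure (adjusted p = 0.00177), calls kept in all 23 alternatives.

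ATP1B3, another beta subunit, averaged 8.90 ± 0.897 RPKM in low PAP, 12.3 ± 2.20 in PH-healthy and 12.8 ± 3.69 in PH-failure, with no overlap of either PH group with low PAP. Its difference of 0.45 ± 0.16 in PH-failure passed the test (limma adjusted p = 0.0436) and that of 0.42 ± 0.16 in PH-healthy did not (adjusted p = 0.0530). The PH-failure call was lost in 15 of 23 alternatives, among them the fits without low-PAP replicate 1, 2, 3, 4 or 5, PH-healthy replicate 2 or PH-failure replicate 3 (adjusted p = 0.0531 to 0.240). ATP1B2 was at 0.943 ± 0.522, 1.74 ± 0.679 and 1.90 ± 1.12 RPKM in low PAP, PH-healthy and PH-failure and was not called.

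**Figure D2:**
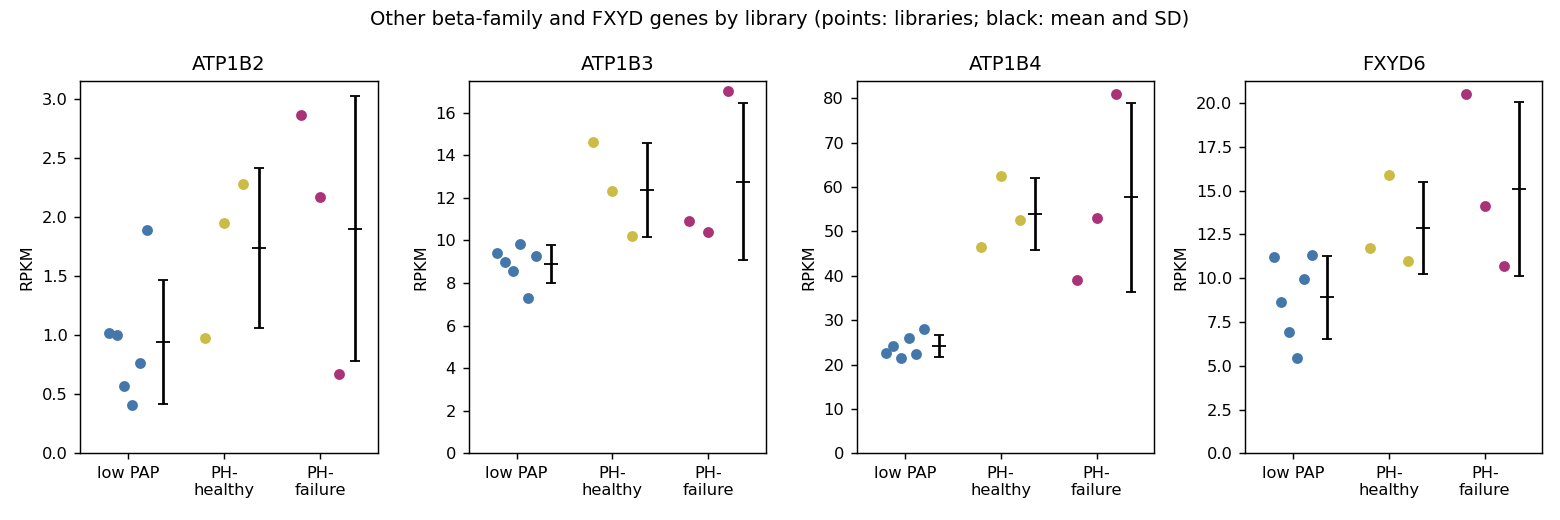
RPKM (linear axis from 0) of 3 other beta-family genes and FXYD6 in each of the 12 libraries, by group, with points for libraries and a black bar for mean and SD. ATP1B4 was at 21.6 to 28.0 RPKM in low PAP and at 39.1 to 80.9 in the PH libraries, while FXYD6 overlapped between PH-failure and low PAP.

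Of the FXYD family beyond FXYD1, 5 of the 6 listed genes were in the table and 3 were tested. FXYD6, a pump modulator best known from the nervous system, averaged 8.91 ± 2.38 RPKM in low PAP, 12.8 ± 2.66 in PH-healthy and 15.1 ± 5.00 in PH-failure. It rose in PH-failure (0.69 ± 0.23, limma adjusted p = 0.0375), a call lost when low-PAP replicate 3 or 4 or a PH-failure replicate, 1 or 2, was left out (adjusted p = 0.0645 to 0.153), and in 11 of 23 alternatives in all. FXYD5, which modulates the pump and cell adhesion, was at 8.72 ± 1.17, 8.69 ± 1.07 and 11.9 ± 3.30 RPKM and FXYD3 at 0.871 ± 0.572, 1.08 ± 0.166 and 0.983 ± 0.841 RPKM in low PAP, PH-healthy and PH-failure, and neither was called. FXYD7 stayed under 1 RPKM and FXYD2 at 0.0750 RPKM or less. FXYD1 was therefore the leading FXYD RNA in every library.

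FXYD1 lies between FXYD3 and FXYD7 on chromosome 18, with FXYD5 (46067592 to 46078935) next to FXYD7. Within 500000 bases on both sides lay 37 other genes, of which 13 were tested. In PH-failure against low PAP 2 of the 13 were called, ZNF599 higher (0.46 ± 0.14, limma adjusted p = 0.0243) and TMEM147 lower (-0.39 ± 0.13, adjusted p = 0.0321). In PH-healthy 3 were called, ZNF599 higher (0.73 ± 0.14, adjusted p = 0.00291) and TMEM147 (-0.43 ± 0.13, adjusted p = 0.0216) and ZNF181 (-0.32 ± 0.10, adjusted p = 0.0315) lower. Over all genes 33.8% and 34.7% were called. Of the FXYD genes around FXYD1, FXYD3 and FXYD5 were not called and FXYD7 was not tested.

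SLC4A3 (ENSBTAG00000014975, chromosome 2, 108273127 to 108286884) encodes an anion exchanger of heart and brain that takes up chloride and releases bicarbonate, which acidifies the cell. Its levels were 8.59, 10.9, 9.02, 9.58, 9.14 and 10.5 RPKM in low PAP, 8.17, 10.5 and 9.79 in PH-healthy, and 12.6, 6.37 and 7.51 in PH-failure. PH-failure again held both extremes, and the groups overlapped. The means were 9.50 ± 1.21 and 8.84 ± 3.34 RPKM in PH-healthy and PH-failure, differences from low PAP of -0.02 ± 0.17 and -0.16 ± 0.17. The second rested on single libraries, with -0.42 without PH-failure replicate 1 and 0.02 without replicate 2. SLC4A3 made up 72.4 ± 3.30% of the RPKM of SLC4A2 and SLC4A3 in low PAP, 69.6 ± 6.26% in PH-healthy and 66.8 ± 5.59% in PH-failure, with overlap between groups. SLC4A2, the exchanger found in most tissues, was at 3.72 ± 0.828, 4.11 ± 0.695 and 4.28 ± 1.10 RPKM and was not called.

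Of the other bicarbonate and anion exchangers and their partners, 7 were tested. In PH-failure 1 of them rose (14.3%, beside 28% of all genes called higher) and in PH-healthy 2 rose (28.6%, beside 26.6%). SLC4A4, a sodium-bicarbonate cotransporter that brings base into heart muscle, averaged 0.427 ± 0.341 RPKM in low PAP, 1.22 ± 0.0587 in PH-healthy and 1.50 ± 0.806 in PH-failure. It rose by 0.67 ± 0.21 in PH-healthy (limma adjusted p = 0.0296) and by 0.78 ± 0.21 in PH-failure (adjusted p = 0.0170). In PH-failure the call depended on replicates 2 and 3 (adjusted p = 0.0813 and 0.0748 with each left out). In PH-healthy it depended on low-PAP replicates 1, 3, 4 and 5 and on each PH-healthy library (adjusted p = 0.0532 to 0.0858 with 1 of them left out). Quantile normalization (adjusted p = 0.0671 in PH-failure and 0.106 in PH-healthy) and the replicate block (0.0688 and 0.0957) ended both calls, and the adipocyte score as a covariate ended that in PH-healthy (0.167). SLC4A4 passed the filter on low values only through PH libraries. AHCYL2, a partner that binds SLC4A4, averaged 12.2 ± 1.65, 22.0 ± 2.00 and 17.3 ± 6.26 RPKM in the 3 groups and rose in PH-healthy (0.81 ± 0.19, adjusted p = 0.00959) but was not called in PH-failure (0.41 ± 0.19, adjusted p = 0.112). With the adipocyte marker score as a term the PH-healthy call was lost (adjusted p = 0.0712).

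CA13 (ENSBTAG00000001000, chromosome 14, 79694161 to 79733755) encodes a cytosolic carbonic anhydrase. Its levels were 3.65, 3.32, 5.10, 3.80, 5.05 and 1.87 RPKM in low PAP, 0.106, 0.0468 and 0.145 in PH-healthy, and 0.0929, 0.135 and 0.640 in PH-failure. Every PH library lay below every low-PAP library, with low-PAP replicate 6 nearest the PH libraries and PH-failure replicate 3 nearest low PAP. The reads behind these values were 286, 300, 385, 325, 459 and 160 in low PAP, 8, 3 and 12 in PH-healthy, and 4, 11 and 51 in PH-failure. For the 3 reads of PH-healthy replicate 2 the exact 95% Poisson interval was 0.00966 to 0.137 RPKM, and for the 51 reads of PH-failure replicate 3 it was 0.477 to 0.842 RPKM. Those intervals cover counting error only, and the lowest low-PAP library had an interval of 1.59 to 2.18 RPKM.

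The mean of CA13 was 3.80 ± 1.21 RPKM in low PAP, 0.0991 ± 0.0494 in PH-healthy and 0.289 ± 0.305 in PH-failure. The low-PAP mean was 38.3 times that of PH-healthy and 13.1 times that of PH-failure. Without PH-failure replicate 3 the PH-failure mean was 0.114 RPKM and the ratio 33.3. On the log2(RPKM + 1) scale the differences were -2.08 ± 0.21 and -1.88 ± 0.21. At these low levels the size depended on the scale, and limma-voom on recovered reads gave -5.18 and -3.98. CA13 passed the filter on low values only through the low-PAP libraries, so a difference was built into its passing. Within series 56 and 55 PH-failure differed from low PAP by -2.04 and -1.53. PH-failure exceeded PH-healthy by 0.21 ± 0.25, with 2 of 3 PH-failure libraries within the PH-healthy range. In the authors' deposited table, which sets all high-PAP animals against low PAP, CA13 had means of 0.343 and 3.91 RPKM and a signed fold of -11.4. That high-PAP mean lies above both PH group means here, so it is not the plain mean of these 6 PH values. The authors' low-PAP mean also differed from the 3.80 RPKM found here. What the authors averaged was not worked out. The largest size among the other 6 genes in the authors' deposited table was 1.43, for ATP1B1.

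CA2 (ENSBTAG00000017733, chromosome 14, 79372711 to 79388600) is the fast cytosolic enzyme, abundant in red cells and present in many tissues. It measured 12.1, 13.2, 14.9, 15.2, 14.3 and 17.2 RPKM in low PAP, 10.8, 14.4 and 16.2 in PH-healthy, and 19.5, 13.1 and 10.9 in PH-failure. The groups overlapped, with PH-failure replicate 1 above and PH-failure replicate 3 and PH-healthy replicate 1 below all low-PAP libraries. Its means of 14.5 ± 1.73, 13.8 ± 2.76 and 14.5 ± 4.46 RPKM gave differences from low PAP of -0.08 ± 0.17 in PH-healthy and -0.03 ± 0.17 in PH-failure. The PH-failure difference was 0.23 within series 56 and -0.46 within series 55, and 0.14 without PH-failure replicate 3. Of cytosolic CA2 and CA13 together, CA13 held 23.1, 20.0, 25.4, 20.0, 26.1 and 9.80% of RPKM in low PAP, 0.972, 0.323 and 0.889% in PH-healthy, and 0.474, 1.02 and 5.53% in PH-failure. The cytosolic pair thus consisted almost wholly of CA2 in the PH libraries.

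CA2 is also a red cell gene, so markers of red cells are set beside it. Of 11 listed red cell genes 8 were in the table and 5 stayed under 1 RPKM in every library. CA1, among those 5, was at 0 in all 12. The summed level was 2.94 to 9.38 RPKM in low PAP, 1.84 to 6.78 in PH-healthy and 3.65 to 70.1 in PH-failure. The 70.1 came from PH-failure replicate 3, with HBB at 56.3 and HBA at 12.4 RPKM. CA2 was at 10.9 RPKM there, the lowest CA2 level in PH-failure. The part of red cells in the CA2 level was not tested.

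CA2 and CA13 lie 305560 bases apart on chromosome 14, with CA3 and CA1 between them. From CA2 to CA3 the gap was 17892 bases, from CA3 to CA1 104144 and from CA1 to CA13 163268. CA3, a muscle carbonic anhydrase of low activity, averaged 0.324 ± 0.203 RPKM in low PAP, 1.58 ± 1.07 in PH-healthy and 1.68 ± 2.12 in PH-failure. The groups overlapped, and it was not called (limma adjusted p = 0.0877 in PH-healthy and 0.132 in PH-failure). CA3 passed the filter on low values only through PH libraries. Within 500000 bases of the pair lay 14 other genes, of which 5 were tested. A gene without a symbol next to CA13 (ENSBTAG00000032227, 79753909 to 79759169) was the 1 called in each PH comparison. It was at 87.7 RPKM in low PAP, 51.0 in PH-healthy and 61.2 in PH-failure (limma adjusted p = 0.00448 and 0.0300). Over all genes 34.7% were called in PH-healthy and 33.8% in PH-failure. E2F5, at 2.92, 2.41 and 2.32 RPKM in the 3 groups, and LRRCC1, at 13.6, 13.4 and 13.6, were not called.

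**Figure D3:**
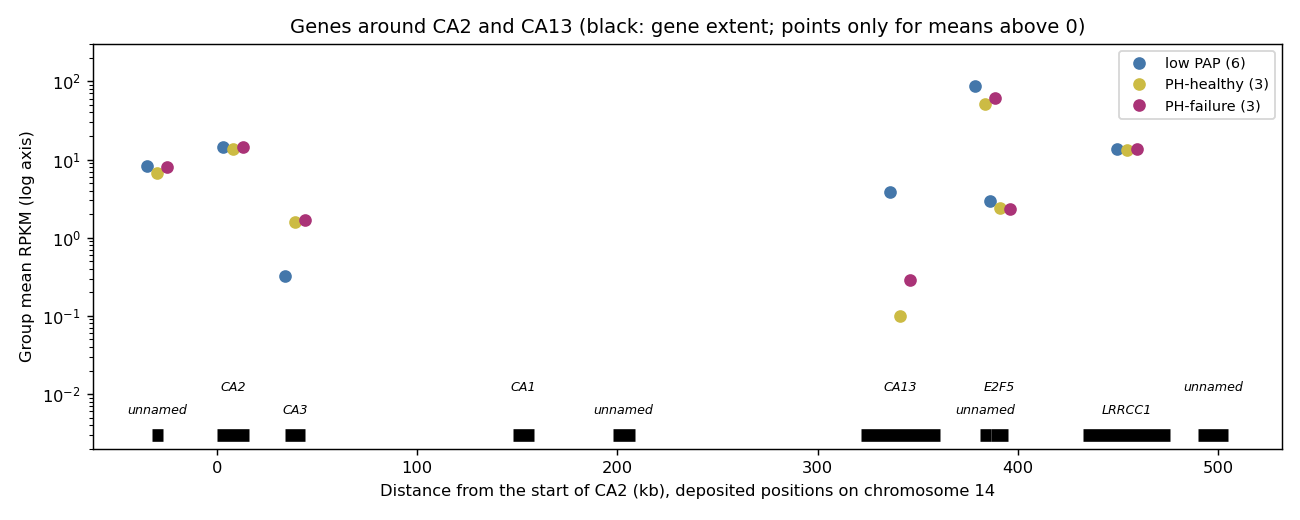
Genes around CA2 and CA13, placed by distance in kb from the start of CA2 (black bars, gene extent), with group mean RPKM on a log axis (points, 1 per group, none where the mean is 0). CA13 was at 3.80 RPKM in low PAP and at 0.0991 and 0.289 in PH-healthy and PH-failure, while CA2 stayed at 13.8 to 14.5 in all 3.

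CA14 (ENSBTAG00000021481, chromosome 3, 20420022 to 20427199) was the most abundant carbonic anhydrase RNA. It measured 58.4, 64.3, 76.6, 78.8, 55.6 and 81.3 RPKM in low PAP, 45.2, 48.1 and 54.4 in PH-healthy, and 59.2, 54.8 and 45.5 in PH-failure. PH-healthy lay wholly below low PAP, with 54.4 against a lowest low-PAP value of 55.6, and PH-failure replicate 1 lay within the low-PAP range. The means of 69.2 ± 11.1, 49.2 ± 4.69 and 53.1 ± 7.01 RPKM gave differences from low PAP of -0.47 ± 0.14 in PH-healthy and -0.37 ± 0.14 in PH-failure. Both were -0.22 or lower under every scaling, left-out library and series split run. Median-ratio scaling gave -0.69 and -0.62, and the PH-failure difference was -0.22 within series 56 and -0.62 within series 55.

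CA4 (ENSBTAG00000017969, chromosome 19, 13109654 to 13117426), known from capillary endothelium and from the heart muscle membrane, was at 1.33, 0.562, 0.567, 0.313, 0.943 and 0.281 RPKM in low PAP. It was at 0.283, 0.167 and 0.162 in PH-healthy and at 0.746, 0.164 and 0.940 in PH-failure. Only low-PAP replicate 1 exceeded 1 RPKM, so CA4 did not pass the filter of 1 RPKM in 3 libraries and was not fitted. It rested on 9 to 39 reads per low-PAP library, 4 to 8 per PH-healthy library and 5 to 28 per PH-failure library. The means were 0.666 ± 0.403, 0.204 ± 0.0683 and 0.617 ± 0.404 RPKM, and all groups overlapped. On the log2(RPKM + 1) scale PH-healthy differed from low PAP by -0.44 and PH-failure by -0.04, from few reads and without a fit. The endothelium list, for comparison, summed to 104 to 182 RPKM in low PAP, 164 to 194 in PH-healthy and 187 to 268 in PH-failure. Of its 10 genes 4 were called higher in each PH group, beside 26.6% of all genes in PH-healthy and 28% in PH-failure. None was called lower. CLDN5, on that list, was at 8.65, 4.82 and 6.36 RPKM in the 3 groups. Its PH-healthy values lay below all low-PAP values. It was not called (limma adjusted p = 0.0699 in PH-healthy and 0.153 in PH-failure). The part of endothelium in the CA4 level was not tested.

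Summed over 15 carbonic anhydrase genes, the RNA came to 90.9 ± 11.6 RPKM in low PAP, 68.6 ± 8.68 in PH-healthy and 73.3 ± 11.9 in PH-failure. The lowest low-PAP library was at 78.0, above all PH libraries but PH-failure replicate 1 at 84.3. CA14 held 75.9 ± 3.08% of this sum in low PAP, 72.0 ± 2.90% in PH-healthy and 72.7 ± 2.32% in PH-failure. CA2 held 16.0 ± 1.14%, 20.0 ± 1.79% and 19.5 ± 3.13%. The 2 genes together thus made up most carbonic anhydrase RNA in each group. Of the other carbonic anhydrases on the list, CA3, CA5B and CA12 were tested, each having passed the filter only through PH libraries. CA1 was at 0 in all libraries, and CA5A, CA6 and CA7 did not exceed 0.0536 RPKM.

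CA12, a membrane enzyme with its active site outside the cell, averaged 0.216 ± 0.152 RPKM in low PAP, 1.59 ± 0.964 in PH-healthy and 0.850 ± 0.894 in PH-failure. It rose in PH-healthy (1.04 ± 0.25, limma adjusted p = 0.0100) but was not called in PH-failure (0.51 ± 0.25, adjusted p = 0.129), and the PH-healthy call was lost without PH-healthy replicate 3 (adjusted p = 0.0562) and with the replicate block (0.0869). It passed the filter only through PH libraries.

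**Figure D4:**
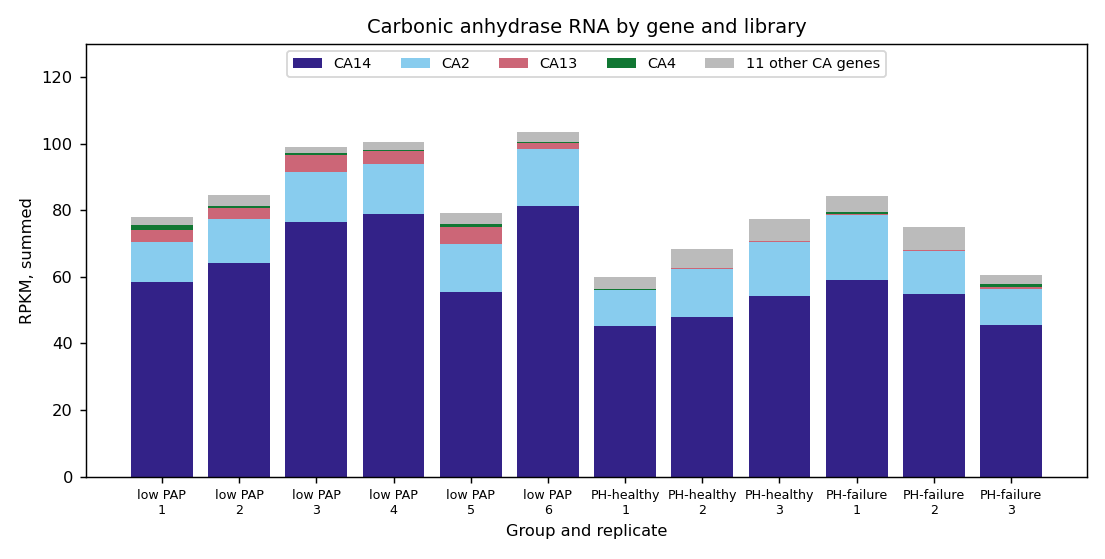
Summed RPKM of carbonic anhydrase RNA (linear axis from 0) in each of the 12 libraries, stacked by gene, with the 11 remaining genes in grey. CA14 held most of the bar in each library, the CA13 segment was visible in low PAP and hardly in PH libraries, and the sum averaged 90.9 RPKM in low PAP, 68.6 in PH-healthy and 73.3 in PH-failure.

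Summed levels of markers of several other cell types are set beside the 7 genes, by group. Some sums differed between the PH groups and low PAP, and others overlapped. The atrial muscle list, with 5 of 6 genes in the table and BMP10 at 0 in every library, summed to 3089 to 6788 RPKM in low PAP, 541 to 878 in PH-healthy and 427 to 1841 in PH-failure. Nearly all of this was MYL7, the atrial myosin light chain, and without it the sums overlapped, at 23.1 to 128, 54.9 to 94.7 and 23.5 to 280 RPKM. MYL7 and MYBPHL were called lower in both PH groups, while NPPA and MYL4 had higher means there and were not called. The smooth muscle and pericyte list summed to 1292 to 1682 RPKM in low PAP, 2673 to 3277 in PH-healthy and 2690 to 4732 in PH-failure. Most of this was DES, the desmin gene that striated muscle also uses. Without it the sums overlapped, at 125 to 217, 181 to 216 and 197 to 341 RPKM. Of the 8 genes, 6 were called higher in PH-failure and 4 in PH-healthy, beside 28% and 26.6% of all genes. MYH11 and NOTCH3 were called higher in both, without overlap with low PAP. CNN1 and RGS5 were not called, with RGS5 at 99.3, 101 and 74.7 RPKM. The fibroblast list summed to 606 to 886, 693 to 1268 and 980 to 1525 RPKM. Of its 8 genes 5 were called higher in each PH group and none lower, beside 28% of all genes called higher in PH-failure and 26.6% in PH-healthy. The macrophage list summed to 41.7 to 64.8, 60.1 to 86.8 and 58.1 to 170 RPKM. Of its 8 genes 6 were called higher in PH-failure and 3 in PH-healthy, and none lower, beside the same shares of all genes. The adipocyte list was at 281 to 581, 383 to 525 and 473 to 1598 RPKM. Much of it was LPL, which other heart cells also express, and without LPL the sums were 39.5 to 267, 30.6 to 45.3 and 51.4 to 1063 RPKM. ADIPOQ, CIDEC and FABP4 were lower in PH-healthy than in low PAP without overlap, by 16.5, 17.7 and 13.6 times in the means. They were not called (limma adjusted p = 0.0516, 0.189 and 0.124). PPARG was also lower without overlap, by 1.64 times, and not called (limma adjusted p = 0.0842). CIDEA, PLIN4 and LPL overlapped, with PH-healthy means at 1.05, 1.14 and 1.11 times those of low PAP. ADIPOQ, CIDEC, FABP4 and PPARG were higher in PH-failure than in PH-healthy without overlap, and were not called. The highest adipocyte sum was in PH-failure replicate 3, where ATP1B1 was highest and FXYD1 and CA14 were lowest in PH-failure. That library also had the lowest ventricular muscle sum, 43418 RPKM. The part of these cell types in the levels of the 7 genes was not tested.

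Over the pathway as a whole, 80 other sodium and pH transport genes were listed, 78 were in the table and 56 were tested. In PH-failure against low PAP 14 of the 56 rose and none fell (25%, beside 33.8% of all tested genes, of which 28% higher and 5.79% lower), with 23 at an unadjusted p under 0.05. In PH-healthy 18 rose and 2 fell (35.7%, beside 34.7% of all genes, with 26.6% higher and 8.15% lower), with 28 at an unadjusted p under 0.05. The median difference of the 56 was 0.20 and 0.22, beside 0.21 and 0.18 for all genes. Of the called, 4 in each comparison had passed the filter only through PH libraries. Of these genes 11 were called higher in both comparisons, which share the low-PAP libraries. PH-failure and PH-healthy differed in none of the 56 by limma, with none at an unadjusted p under 0.05, beside 0.00879% of all genes called.

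**Figure D5:**
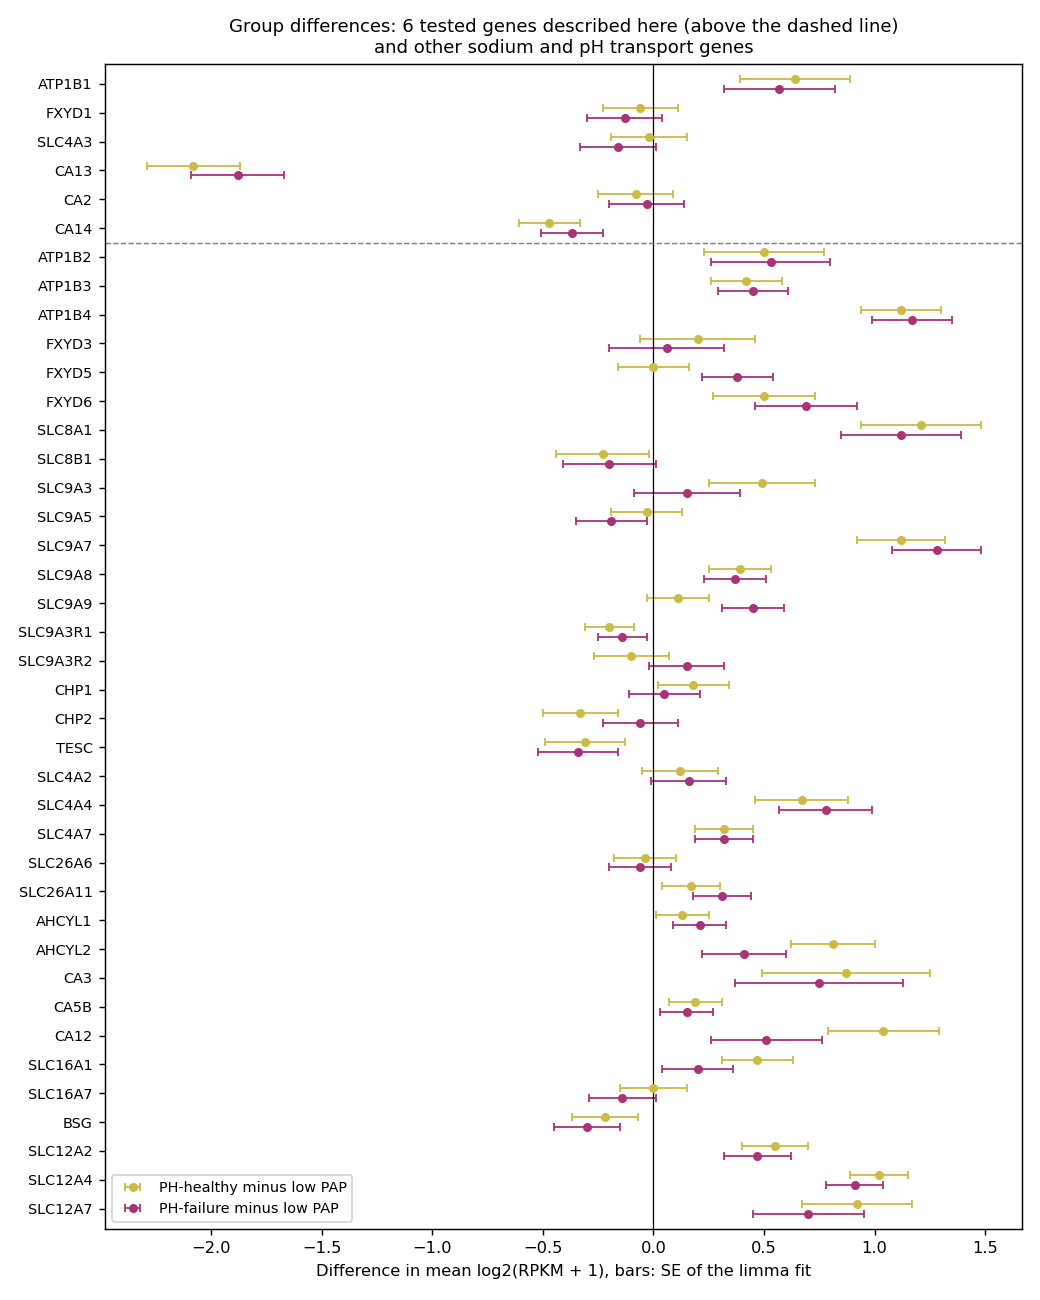
Differences of PH-healthy and of PH-failure from low PAP in mean log2(RPKM + 1), with SE of the limma fit, for the 6 fitted genes of the set (above the dashed line) and for 34 other tested transport genes, without the vacuolar proton pump. CA13 lay near -2, FXYD1, SLC4A3 and CA2 near 0, and ATP1B4, SLC8A1, SLC9A7 and SLC12A4 at 0.91 or higher in both comparisons.

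SLC8A1 and SLC12A4, like ATP1B4, were called higher in both comparisons under all 23 alternatives. SLC8A1, the sodium-calcium exchanger of heart muscle that runs on the gradient the pump builds, averaged 39.1 ± 15.7 RPKM in low PAP, 87.2 ± 14.8 in PH-healthy and 82.1 ± 15.3 in PH-failure, without overlap. It rose by 1.21 ± 0.27 (limma adjusted p = 0.00654) and 1.12 ± 0.27 (adjusted p = 0.0106). SLC12A4, a potassium-chloride cotransporter of cell volume control, averaged 7.45 ± 1.09, 16.0 ± 1.06 and 14.8 ± 2.52 RPKM and rose by 1.02 ± 0.13 (adjusted p = 0.000421) and 0.91 ± 0.13 (adjusted p = 0.00126).

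All 4 chloride cotransporters were called higher in both comparisons, beside 26.6% of all genes in PH-healthy and 28% in PH-failure. Of the 4, 1 had passed the filter only through PH libraries. Their median differences were 0.81 in PH-healthy and 0.65 in PH-failure. SLC12A2, the sodium-potassium-chloride cotransporter, averaged 1.62 ± 0.436 RPKM in low PAP, 2.84 ± 0.558 in PH-healthy and 2.61 ± 0.344 in PH-failure (limma adjusted p = 0.0163 and 0.0328). Its PH-healthy call was lost without PH-healthy replicate 2 (adjusted p = 0.0678) or 3 (0.0716), and its PH-failure call when PH-failure replicate 2 or 3 or low-PAP replicate 1, 3, 4 or 5 was dropped (adjusted p = 0.0532 to 0.124). SLC12A7 averaged 29.2 ± 10.8, 53.3 ± 4.67 and 46.2 ± 9.48 RPKM (adjusted p = 0.0155 and 0.0464). Its PH-healthy call was lost without PH-healthy replicate 1 (adjusted p = 0.0571) or 3 (0.0587), and its PH-failure call in 17 of 23 alternatives, among them the fit without any 1 library other than low-PAP replicates 5 and 6 (0.0549 to 0.141).

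Of 12 tested sodium-proton exchangers and their partners, 3 rose in PH-failure (25%, beside 28% of all genes called higher). In PH-healthy 4 rose (33.3%, beside 26.6%). SLC9A7 and SLC9A9, both among the 3, passed the filter only through PH libraries. SLC9A7, an exchanger of the Golgi and endosomes, was at 0.150, 0.490, 0.0782, 0.224, 0.439 and 0.482 RPKM in low PAP, 2.05, 1.70 and 1.73 in PH-healthy, and 1.44, 1.63 and 3.94 in PH-failure. Every PH library lay above every low-PAP library (limma adjusted p = 0.00239 in PH-healthy and 0.00169 in PH-failure). TESC, a calcineurin-like partner of sodium-proton exchange, abundant here at 123 ± 10.1, 98.9 ± 8.46 and 101 ± 40.7 RPKM, was not called.

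Of 3 tested genes of lactate-proton transport 1 rose in PH-healthy (33.3%, beside 26.6% of all genes called higher) and 0 in PH-failure (beside 28%). SLC16A1, the monocarboxylate carrier of lactate, averaged 48.4 ± 5.89 RPKM in low PAP, 66.9 ± 3.05 in PH-healthy and 57.0 ± 15.8 in PH-failure. It rose in PH-healthy (limma adjusted p = 0.0393) but the call was lost in 13 of 23 alternatives, among them the fits without low-PAP replicate 1, 3, 4 or 5 or any 1 PH-healthy library (adjusted p = 0.0595 to 0.117). BSG, the chaperone of that carrier, was at 545 ± 54.8, 465 ± 11.9 and 451 ± 118 RPKM and was not called. Of 17 vacuolar pump genes (23.5% called in PH-healthy and 5.88% in PH-failure, beside 34.7% and 33.8% of all genes) 1 rose in PH-failure (ATP6V0A1), and 2 rose (ATP6V0A1 and ATP6V0A2) and 2 fell (ATP6V1D and ATP6V1G1) in PH-healthy, each call lost without 6 to 10 of the 12 libraries left out in turn.

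For each member, the genes most like it over the 12 libraries were found by the root mean square distance between standardized log2 profiles. A distance of 0 is the same pattern. Compared with each member were the other tested genes with a symbol, 10713 of them (10714 for CA4, itself not tested). Nearest to CA13 were IFT20 (0.18), MRPL48 (0.25) and EXOSC9 (0.25), against a median distance of 1.72. IFT20, an intraflagellar transport protein, was at 36.1 ± 4.49 RPKM in low PAP, 19.9 ± 1.02 in PH-healthy and 19.7 ± 2.17 in PH-failure. Nearest to ATP1B1 were TMED2 (0.20), RBM18 (0.24) and SERINC1 (0.25), against a median of 1.05. TMED2, a protein of vesicles between endoplasmic reticulum and Golgi, was at 56.5 ± 11.7, 71.6 ± 5.16 and 76.5 ± 17.3 RPKM.

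Nearest to FXYD1 were PRDX2 (0.37), LIN37 (0.38) and NDUFA11 (0.40), against a median of 1.54, and nearest to CA14 were CCL11 (0.43), KLHDC3 (0.46) and ABAT (0.47), against 1.64. PRDX2, a peroxide-removing enzyme, was at 541 ± 83.4, 490 ± 52.6 and 465 ± 154 RPKM. For SLC4A3, CA2 and CA4 the nearest gene stood at 0.59 (FAM212B), 0.53 (ZNF385A) and 0.46 (PGRMC1). None of the genes named as nearest was another of the 7, and CA4, not tested, was not among the genes compared. Such likeness describes 12 libraries that share depth and group, and carries no test.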

How the data were processed

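The 7 genes, the lists of transport and marker genes and the tests were chosen with earlier results of these data known. The deposited table holds RPKM for each gene and library, scaled by the authors to exon length and mapped reads, per the file headers. Per the file headers it has further columns by the authors, with mean RPKM of both pressure classes, a signed fold score comparing them, and a p-value and FDR that were not used. The sources used here do not name the aligner, counting, strand setting, genome build or treatment of reads shared by similar genes. Positions are those of the table. Where a symbol repeated, the row of highest mean was used.

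Read numbers were recovered from the RPKM steps, and 100% of the 17284 genes above 0 came out whole in every library within 0.05 reads. A minimum of 1 RPKM in 3 or more libraries left 11374 genes, fitted as log2(RPKM + 1) with limma 3.58.1 in R 4.3.3 (trend, robust, statmod 1.5.0), in 1 model of 3 groups with 3 comparisons. Genes were called at a Benjamini-Hochberg adjusted p under 0.05 over all of them, and every adjusted p printed comes from limma. The fit and the read recovery were tested on simulated data.

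Named are the 7 genes, up to 4 called genes of smallest p per list and comparison, the pump and carbonic anhydrase genes with a value, and the 3 genes of nearest pattern. Not all are reported here. Alternatives were 2 other pseudocounts, no filter, limma-voom on recovered reads, 3 scalings, 3 added terms, a fit of only the groups compared, and each library left out, 23 in all. Values within library series were added after seeing the data. Each library is 1 animal, so the spread is that between animals, with preparation included.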

Additional observations from a re-analysis of the deposited data

Results flagged for a closer look

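Among the 63 genes of the set and its pathway lists that were examined, 2 had 1 library far from the other 5 of the low-PAP group. SLC9A3, a sodium-proton exchanger of epithelia, was at 1.28 RPKM in low-PAP replicate 6 and at 0.0771 to 0.464 RPKM in the others, a gap of 0.678 of the range, beyond Dixon's 95% critical value for 6 samples. SLC4A4, the sodium-bicarbonate cotransporter, was at 1.09 RPKM in low-PAP replicate 2 and at 0.176 to 0.464 RPKM in the others, a gap of 0.685 of the range. Chance sets a library apart in this way in about 1 of 20 groups. None of the 7 genes of the set was among them.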

How the results depend on the processing

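Of 14 transport genes called higher in PH-failure, 5 were called in every alternative run, and of 20 called in PH-healthy 7 were, ATP1B4, SLC8A1, SLC9A7 and SLC12A4 among them in both (SLC9A7 passed the filter only through PH libraries). The 14 became 5 with quantile normalization, 6 with median-ratio scaling, 9 with scaling to reads outside the mitochondrial genome, 9 when an adipocyte score was a term and 8 with the replicate block, and 8 to 20 with 1 library left out. It was 8 without low-PAP replicate 3 or 4 and 9 without PH-failure replicate 2. The 0 called lower became 4 (quantile), 9 (median-ratio), 3 (outside the mitochondrial genome) and 1 (adipocyte score), and 0 to 4 with 1 library left out, with 4 without PH-failure replicate 1. In PH-healthy the 18 higher became 11 with quantile normalization and 8 with the adipocyte score, and 9 to 22 with 1 library left out. It was 11 without low-PAP replicate 3, 4 or 5 or PH-healthy replicate 1 or 2, and 9 without PH-healthy replicate 3. The 2 lower became 1 without the filter, 6 with median-ratio scaling, 1 with library series as a term, 0 with the adipocyte score and 0 with the replicate block, and 0 to 3 with 1 library left out. The cause was not tested. PH-failure against PH-healthy gave 0 throughout.

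The split of all called genes moved with the scaling. In PH-failure 3190 were higher and 658 lower, against 1133 and 1418 with quantile normalization, 1530 and 1681 with median-ratio scaling and 2345 and 956 with scaling outside the mitochondrial genome. In PH-healthy 3024 and 927 became 1424 and 1622, 1824 and 1861, and 2433 and 1278. Limma-voom on the recovered reads called 3349 higher and 668 lower in PH-failure, and 3166 and 884 in PH-healthy.

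The replicate numbers name different animals. Same-numbered deviations correlated at 0.172, 0.193 and -0.0834 (PH-failure and low PAP) and at -0.123, -0.257 and -0.17 (PH-healthy and low PAP), so the numbers do not pair the samples. The replicate block left 1222 higher and 157 lower calls for PH-failure, and 1514 and 320 for PH-healthy. PH-failure and PH-healthy were compared with 3 animals each, and CA4 and CA13 in PH libraries rest on few reads.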
